A study of Oncorhynchus mykiss with 525 samples.

Results

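The wells described here are rainbow trout gill cells exposed to 2 pesticides, taken here as a related pair, at concentrations just below the highest one tested. The labels give the chemicals only by the codes met and smet, with no structure. Members were chosen as the wells at the 2 concentrations next below the highest, called conc 2 and conc 3, above a lower limit on total counts. That left 11 of 12 wells, out of 525 samples in the series: 6 of met and 5 of smet. Conc 1, the highest concentration of each chemical, was left out by the same rule.

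RTgill-W1 is a continuous epithelial cell line from the gill of rainbow trout. The gill is where a fish meets dissolved chemicals first, and this line serves in acute toxicity tests in place of live fish. Shifts in RNA levels below the concentrations that kill cells are used to set a transcriptomic point of departure, the lowest concentration at which a response can be told from controls. The files pair no gene name with their Ensembl IDs, and 0 of the 44260 IDs matched the reference table of names, so IDs are given in place of genes, no role is given to any of them, and neither the pathway lists nor the epithelial markers of the line could be looked up.

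Every well held RTgill-W1 cells of one of 3 passages, exposed for 24 h in a 96-well plate, 1 passage per plate and batch. Concentrations fell in 3-fold steps, and the labels give them without a unit. For met, in batch 1, conc 2 was 18.82 and conc 3 was 6.27, with 3 wells each. For smet, in batch 2, conc 2 was 28.47 with 3 wells and conc 3 was 9.49 with 2 wells, since the remaining well, with 21296 counts, was under the limit. Controls were the wells given the solvent dimethyl sulfoxide in the same batch, 24 for met and 15 for smet, and no solvent well served both chemicals. The 2 series of concentrations matched at no step, so values of met and smet stand side by side and 0 pairs were tested against each other. The 3 replicates of a concentration lay in the same well of 3 plates, so concentration and well position cannot be told apart within a chemical, and no treated well shared a library with a solvent well. The labels name the 3 passages as biological replicates, and solvent wells of a plate share its passage.

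At conc 2 a small set of transcripts was higher than in solvent in the wells of each chemical. With met, 13 of 3643 IDs tested passed a false discovery rate (FDR) of 0.05, which is 0.357%, and all 13 were higher, by 0.72 to 1.94 on the log2 scale. With smet, 7 of 4886 IDs passed (0.143%), 5 higher and 2 lower. The same 3 IDs rose with both, ENSOMYG00000002715, ENSOMYG00000035727 and ENSOMYG00000002207, which is 23.1% of the 13 IDs higher with met and 60% of the 5 higher with smet. At conc 3, 2 IDs rose with met (0.0549%) and 1 fell with smet (0.0205%), and none was shared. All these counts take each well as 1 sample, although wells of a plate share a passage. With solvent wells summed per plate, met at conc 2 gave 3 IDs, and with the plate as a replicate block, described below, it gave 31 (0.851%).

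ENSOMYG00000002715 showed the largest rise with met. Its level is given here, as for all IDs below, in CPM, counts scaled to a common library size with the TMM factor (a scaling that brings most transcripts of the wells to a common level). With met at conc 2 it stood at 414, 322 and 578 on plates 1, 2 and 3, against 47.5 to 210 in the 24 solvent wells, with a median of 105. All 3 wells lay above every solvent well. The log2 fold change was 1.94 ± 0.21 (SE) with an FDR of 4.1e-09. At conc 3 of met the levels were 199, 197 and 398, a log2 fold change of 1.23 ± 0.23 with an FDR of 0.0051, and only the well of plate 3 lay above every solvent well. From 0.03 to 2.09 its levels ran from 68.2 to 179, within the solvent range.

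The same ID rose with smet. At conc 2 it stood at 193, 280 and 418, against 79.9 to 172 in the 15 solvent wells, with a median of 99.8. Again all 3 wells lay above the solvent wells, and the log2 fold change was 1.49 ± 0.24 with an FDR of 5.1e-05. At conc 3 the 2 wells stood at 164 and 186, a log2 fold change of 0.69 (95% confidence interval -0.03 to 1.41) that did not pass. The intervals at conc 2 were 1.52 to 2.36 for met at 18.82 and 1.02 to 1.97 for smet at 28.47, which overlap, at concentrations that differ.

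ENSOMYG00000035727 was more abundant and followed the same course. With met at conc 2 it stood at 1093, 604 and 1352, above all 24 solvent wells, which ran from 133 to 514 with a median of 352. The log2 fold change was 1.51 ± 0.19 with an FDR of 2.0e-07. With smet at conc 2 it stood at 596, 868 and 799, above all 15 solvent wells, which ran from 279 to 397 with a median of 336. That gave 1.17 ± 0.17 with an FDR of 7.2e-06. At conc 3 it was at 731, 434 and 636 with met and at 655 and 557 with smet. The log2 fold changes were 0.75 and 0.84 with FDRs of 0.31 and 0.13, so neither passed. Of these wells, 2 of 3 with met and 2 of 2 with smet lay above every solvent well. With smet at conc 3 both wells did so for 104 of 4886 IDs (2.13%), and 0 IDs were called higher there.

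ENSOMYG00000002207 was the least abundant of the 3. With met at conc 2 it stood at 207, 185 and 158, from 47, 27 and 26 counts, and the solvent wells ran from 0 to 133 with a median of 57.3. All 3 wells lay above them, with a log2 fold change of 1.40 ± 0.27 and an FDR of 0.0026. With smet at conc 2 it stood at 96.7, 129 and 191, from 6, 23 and 21 counts, against 21.8 to 101, so the well of plate 1 lay inside the solvent range. The log2 fold change was 1.31 ± 0.31 with an FDR of 0.043. At conc 3 it was 0.61 with met and -0.09 with smet, neither past the FDR.

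**Figure D1:**
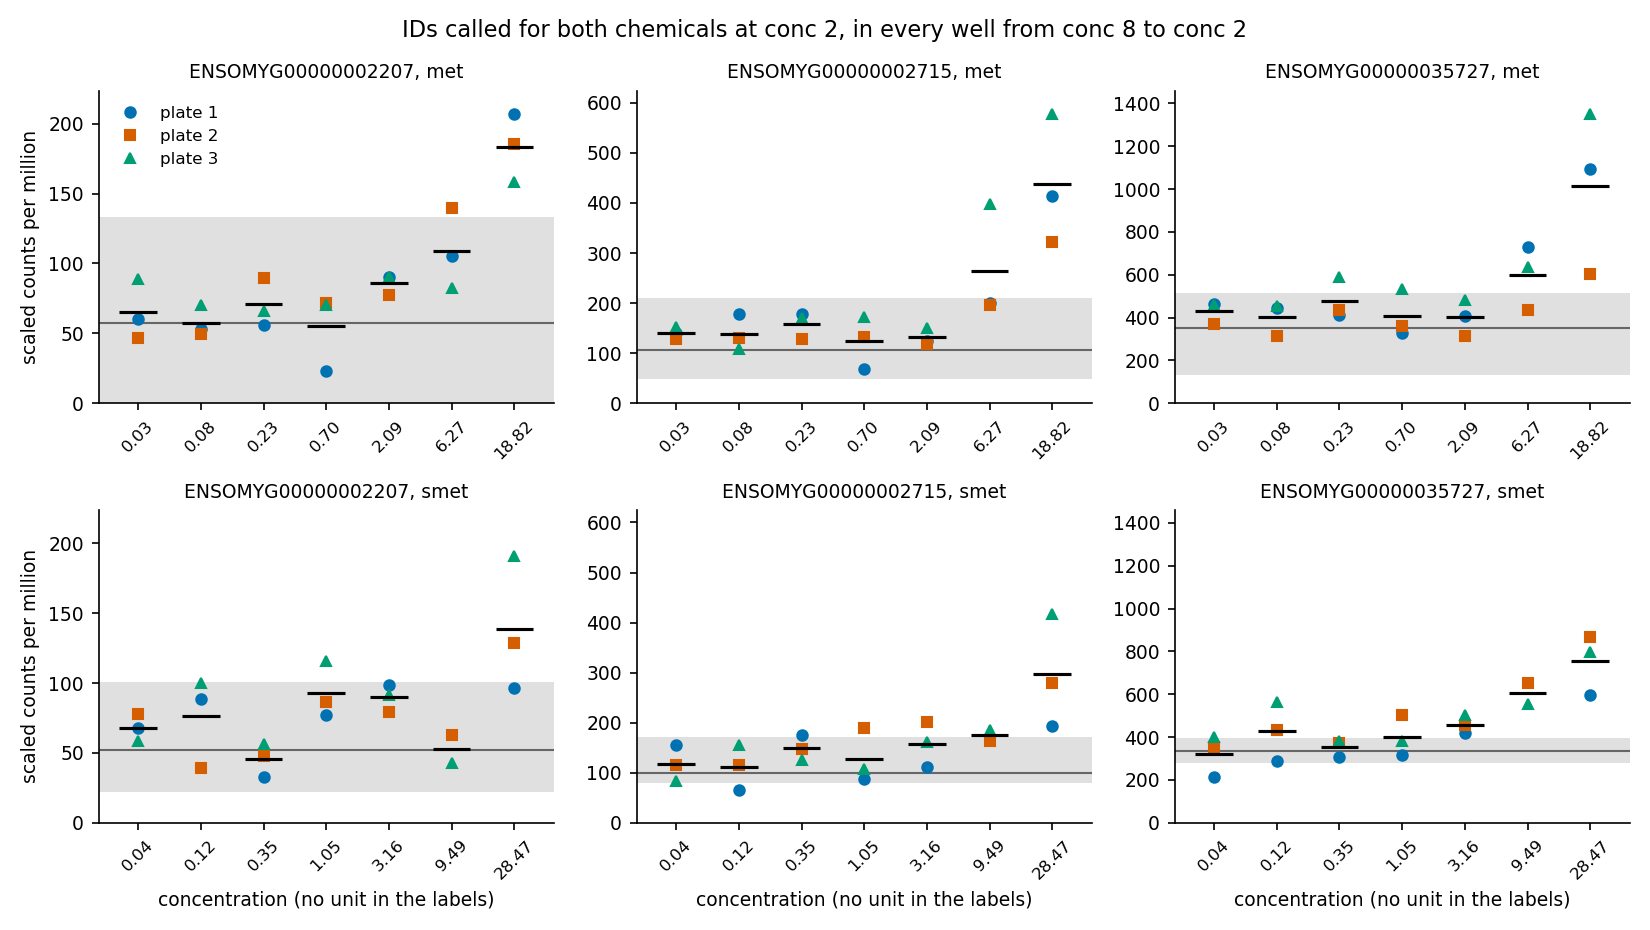
Level of the 3 IDs called for both chemicals at conc 2, in scaled CPM (y axis), by concentration as labelled, with no unit (x axis), for met above and smet below. Points are single wells by plate, and black bars are means over the wells of a concentration. The grey line is the solvent median, and the grey band runs from the lowest to the highest solvent well. For ENSOMYG00000035727 the conc 2 wells lie between 604 and 1352 with met and between 596 and 868 with smet, all above the band.

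A second look used no solvent well: the slope of each ID over conc 8 to conc 2 in the chemical's own wells, which share their libraries. With met, 4 of 3364 IDs rose with concentration (0.119%) and all 4 were among the 13. With smet, 3 of 3832 rose (0.0783%) and all 3 were among the 7. ENSOMYG00000002715 was called in both, with 0.26 ± 0.05 per 3-fold step for met (FDR 0.021) and 0.22 ± 0.05 for smet (FDR 0.020). ENSOMYG00000035727 passed for smet (0.18 ± 0.03 per step, FDR 0.0054) and stood at 0.18 ± 0.04 with an FDR of 0.074 for met. ENSOMYG00000002207 passed for met (0.25 ± 0.05, FDR 0.021) and not for smet (0.16 ± 0.06, FDR 0.91). These slopes hold the conc 2 wells too, so they are not independent of the counts at conc 2. Concentration ran with well position, so the slopes cannot tell the 2 apart either. The 3 IDs of smet include ENSOMYG00000046597. Its mean level was 1119 to 1245 from conc 8 to conc 4, 1431 at conc 3 and 2622 at conc 2, and it is taken up again below.

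Most of the other IDs that rose with met at conc 2 had log2 fold changes above 0 with smet as well, without passing. Of all 13, 12 lay above 0 with smet at conc 2, with a median of 0.79. Of the 3404 IDs tested for both chemicals, 38.7% did, with a median of -0.12. Of the 13, 6 were higher with smet at an unadjusted p under 0.05, against 2.85% of those 3404 IDs. The 13 were listed by passing with met alone, and these counts include the 3 shared IDs, which passed the FDR with smet too. The chemical per, described below, lay in the wells of met on other plates. With per at conc 2, 9 of the 12 IDs tested lay above 0, against 47.5% of all IDs. At an unadjusted p under 0.05, 5 were higher, against 2.82%. How much of the likeness to smet belongs to the well was not tested. ENSOMYG00000024017, one of the 2 largest rises with met outside the shared IDs, stood at 123, 41.2 and 158 with met at conc 2, against 0 to 69.9 in solvent. It had a log2 fold change of 1.88 ± 0.35 and an FDR of 0.0013. With smet it was listed at 0 counts on plate 1, at 33.6 on plate 2 and at 191 on plate 3, with a log2 fold change of 1.83 ± 0.52 (FDR 0.17), so its wells did not move together.

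ENSOMYG00000016230, the other large rise with met, came from 15, 12 and 16 counts. Its levels of 66.1, 82.3 and 97.4 at conc 2 lay above all solvent wells, which ran from 0 to 50.9, with a log2 fold change of 1.92 ± 0.47 and an FDR of 0.044. With smet it stood at 48.4, 11.2 and 54.5 from 3, 2 and 6 counts, a log2 fold change of 1.46 ± 0.69 that did not pass (FDR 0.52). ENSOMYG00000017644, named after its values were seen, stood at 728, 995 and 481 with met at conc 2, against 102 to 590 in solvent, a log2 fold change of 1.65 ± 0.30 with an FDR of 0.0011. With smet at conc 2 it stood at 242, 414 and 318, all above the solvent wells of 120 to 239, but its 0.82 ± 0.22 did not pass (FDR 0.14).

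**Figure D2:**
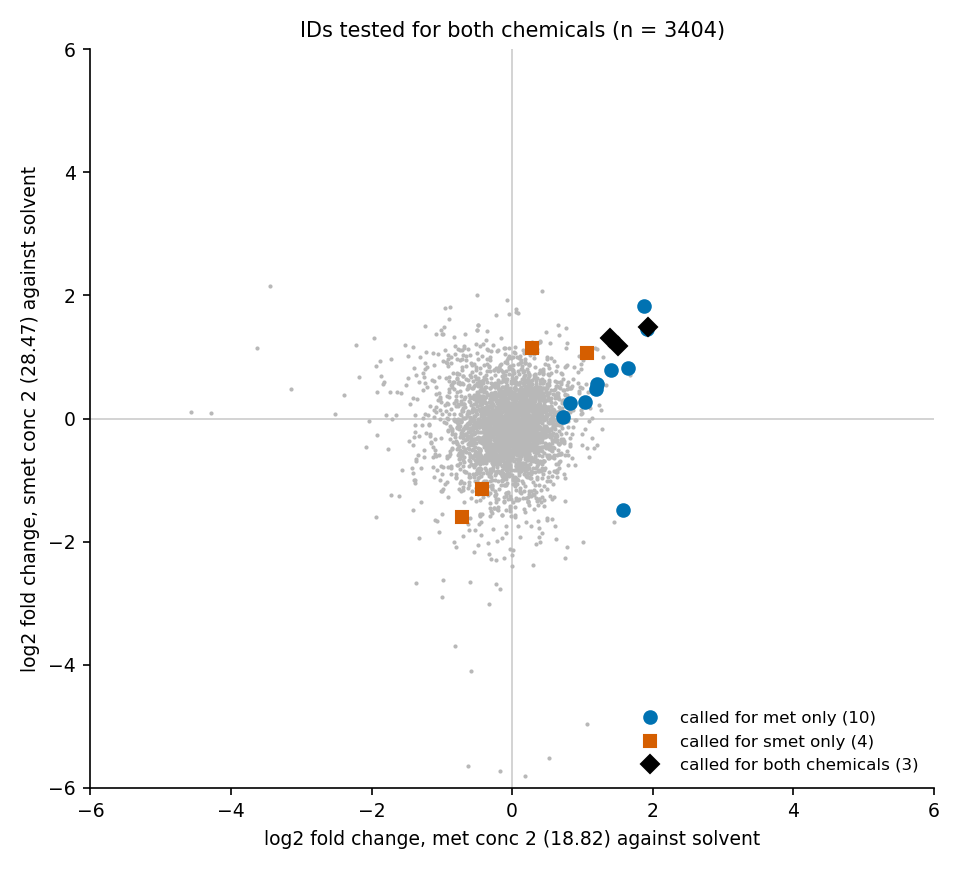
Log2 fold change against solvent at conc 2 for met (x axis, concentration 18.82) and smet (y axis, concentration 28.47), 1 point for each of the 3404 IDs tested for both chemicals. Blue circles were called for met only (10), orange squares for smet only (4) and black diamonds for both (3); 12 of the 13 IDs called for met lie above 0 on the smet axis, and the one below is ENSOMYG00000009413.

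With smet, 4 IDs passed at conc 2 that did not pass with met. ENSOMYG00000046597 had the smallest FDR with smet: it stood at 1983, 3013 and 2871, against 1032 to 1393 in solvent, a log2 fold change of 1.14 ± 0.14 with an FDR of 1.9e-08. At conc 3 it stood at 1435 and 1428, and with met at conc 2 it was at 1662, 1283 and 1120, a log2 fold change of 0.28 (interval -0.04 to 0.60). ENSOMYG00000036222 stood at 129, 459 and 436 against 97.2 to 249 in solvent, so the rise of 1.07 ± 0.24 (FDR 0.029) was not seen on plate 1. With met at conc 2 its wells stood at 234, 631 and 219, a log2 fold change of 1.06 ± 0.44 (FDR 0.58). This ID did not follow the concentration of smet: its mean level was 341 at conc 2, 174 at conc 3, 320 at conc 4, 309 at conc 5 and 347 at conc 6, and it was called at conc 6 as well (0.99 ± 0.23, FDR 0.026).

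The 2 IDs that fell with smet at conc 2, named after their values were seen, also had log2 fold changes below 0 with met, without passing. ENSOMYG00000008585 stood at 113, 123 and 45.4 from 7, 22 and 5 counts, below all solvent wells, which ran from 228 to 352, with a log2 fold change of -1.59 ± 0.26 and an FDR of 6.2e-05. With met at conc 2 it was at 207, 130 and 238, against 174 to 442 in solvent, a log2 fold change of -0.71 ± 0.24 (FDR 0.36). Of these 3 wells, 1 lay below every solvent well and 0 lay above the solvent median. ENSOMYG00000031498 stood at 258, 162 and 127 with smet against 248 to 518 in solvent, a log2 fold change of -1.15 ± 0.25 (FDR 0.019), and the plate 1 well lay inside the solvent range. With met at conc 2 it was -0.42 ± 0.21 (FDR 0.70), and its 3 wells lay inside the solvent range of 231 to 610, below the median of 440. The fall of ENSOMYG00000031498 did not pass with DESeq2 or with RLE scaling, a scaling by median ratios.

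Conc 3 added 1 ID for each chemical. ENSOMYG00000009047 rose with met at conc 3 to 183, 73.8 and 204, against 0 to 160 in solvent, a log2 fold change of 1.45 ± 0.28 with an FDR of 0.0051. At conc 2 it was back at 61.7, 27.4 and 36.5, so its level did not go up with concentration. ENSOMYG00000017892 fell with smet at conc 3 to 164 and 143 from 13 and 10 counts, below all solvent wells, which ran from 293 to 673. Its log2 fold change was -1.69 ± 0.32 with an FDR of 0.0077, and at conc 2 its wells lay inside the solvent range at 322, 454 and 354. The median of the 13 IDs higher with met at conc 2 was 1.41 there and 0.75 at conc 3, and that of the 5 IDs higher with smet was 1.17 and 0.26, against the same solvent wells. The median of all IDs tested was -0.03 at both concentrations with met, and -0.09 and -0.28 with smet. These IDs were chosen by passing at conc 2, so a lower median at conc 3 is expected from that choice. No change with concentration is read from it.

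Taking conc 2 and conc 3 as 1 group, 9 IDs rose with met (0.247%) and all 9 were among the 13 of conc 2. With smet 16 IDs passed (0.327%), 4 higher and 12 lower. The split turned on the scaling: with RLE scaling it was 7 higher and 6 lower of 13, and with DESeq2 8 higher and 4 lower of 12. At conc 2 alone RLE scaling gave 5 higher and 1 lower, and DESeq2 8 and 1; at conc 3 each gave 1 and 1. The median log2 fold change of all IDs with smet was -0.28 at conc 3 and -0.22 for both concentrations under TMM, and -0.12 and -0.08 under RLE. The 12 falls, from -0.69 to -1.70, therefore stand against a median that was itself below 0. At conc 8 of smet, 9 of the 12 already lay below 0, with a median of -0.21, against -0.03 for all IDs. In the slope over conc 8 to conc 2 of smet, 0 IDs were called lower. The 12 are thus differences from solvent, and no fall with concentration is read from them. ENSOMYG00000022957 had the largest rise of the 4, 1.28 ± 0.31 (FDR 0.034), at 129, 44.8 and 136 in conc 2 and 151 and 128 in conc 3 against 20.4 to 79.6 in solvent, and was at -0.20 with met. ENSOMYG00000015183 had the largest fall, -1.70 ± 0.35 (FDR 0.0082), from 0, 15 and 7 counts at conc 2 and 2 and 1 counts at conc 3, and was at 0.35 with met.

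Among the 12 falls were ENSOMYG00000002129 and ENSOMYG00000002243, named after their values were seen, which are 2 of the 4 most counted IDs. Each held 5.88% to 6.04% of all counts in either table, and the ratio of their counts was 0.96 to 1.05 in every well, so reads of the pair may be shared and their values are uncertain. ENSOMYG00000002129 stood at -0.70 ± 0.17 with smet (FDR 0.025) and at 0.68 ± 0.20 with met (FDR 0.23) for both concentrations together. The opposite signs were already there at conc 8, the lowest concentration, with -0.51 for smet and 0.54 for met, and the slopes over concentration were -0.01 ± 0.03 and 0.03 ± 0.04 per step. The difference of this pair from solvent therefore did not go up or down with concentration beyond its error.

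The lower concentrations give the scale for these counts. At conc 4, 5, 6, 7 and 8 of met, edgeR called 0 IDs each (0%), with 118, 109, 112, 100 and 140 of 3643 IDs at an unadjusted p under 0.05, against 137 at conc 3 and 258 at conc 2. With smet, 0 IDs passed at conc 4 (0%), 4 at conc 5 (0.0819%), 10 at conc 6 (0.205%), 1 at conc 7 (0.0205%) and 3 at conc 8 (0.0614%). The 10 IDs at conc 6, a concentration of 0.35, outnumbered the 7 at conc 2, and 1 ID was called at both. At an unadjusted p under 0.05, smet had 431 of 4886 IDs at conc 2, 534 at conc 3 and 168 to 239 at conc 4 to conc 8.

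The wells of smet were also the shallower ones. Its conc 2 wells held 49975, 222964 and 106177 counts. That was 54.5%, 57.5% and 41.8% of the library median, which is the median of the other wells of the library that were read here. Its conc 3 wells held 80268 and 56378 counts, or 20.7% and 22.2%. For met the totals were 343179, 163635 and 221794 at conc 2 and 290466, 136833 and 276294 at conc 3, or 80.3% to 120% of the library median. Solvent wells ran from 25250 to 539790 counts in batch 1 and from 158258 to 506267 in batch 2. The share of IDs whose wells all lay below every solvent well was 8.64% at conc 3 of smet, with 2 wells against 15 of solvent. At conc 3 of met it was 0%, with 3 wells against 24. The shares above every solvent well were 2.13% and 0.0274%. Numbers of wells and depth differ between the chemicals, so these shares are not like measures. In bulk wells, fewer cells and less RNA per cell cannot be told apart.

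The low totals of smet sat in wells that were also low under another chemical. The plates of the other batch held the chemical thx in the same column 7, rows F and G. There the conc 3 wells of thx held 25.6% to 29.5% of their library median and the conc 2 wells 55.04% to 64.1%, close to the values for smet. The chemical per, in the wells of met on the plates of batch 2 (column 6), held 78.9% to 95.3% at conc 3 and 92.0% to 130% at conc 2. For per the median came from its own other wells only, and for met it left out the chemical imi of the same libraries. These values are therefore not the same measure as those of smet and thx. Whether column 6 was low against all wells pooled with it was not tested.

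**Figure D3:**
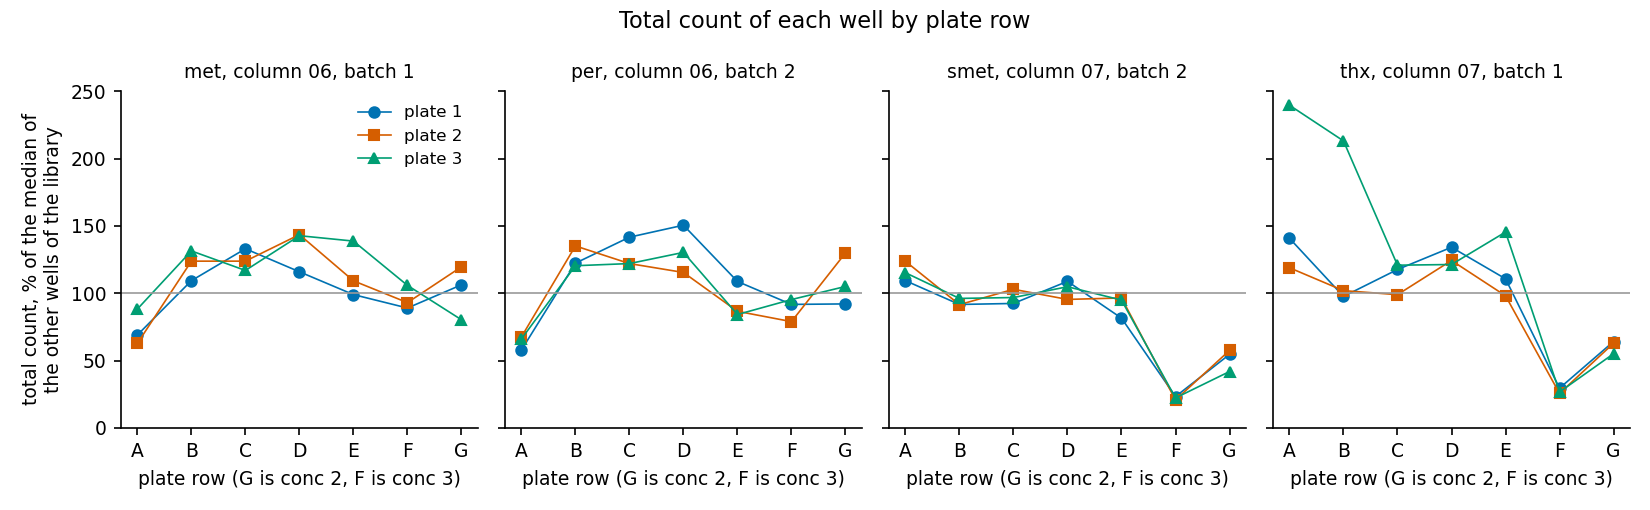
Total count of each well as a percentage of the median of the other wells of its library that were read here (y axis) by plate row from A (conc 8) to G (conc 2) (x axis), for met and per in column 6 and for smet and thx in column 7, with points and lines by plate. For per that median came from per wells only, and for met it left out the chemical imi of the same libraries. In row F, smet lies between 20.7% and 23.2% and thx between 25.6% and 29.5%, while met and per stay at 78.9% or above.

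The same comparison was made for the IDs, with per against the solvent of batch 2 for met, and thx against the solvent of batch 1 for smet, an addition chosen after seeing the data. Here per shares no well with met, and thx shares none with smet. The 15 solvent wells of per are those of smet, however, and the 24 of thx are those of met. For IDs called for both chemicals, the values of per and thx therefore share controls with 1 of the 2 results. In its own right per called 5 of 3901 IDs at conc 2 (0.128%) and thx 1 of 3492 (0.0286%). The 1 ID of thx was ENSOMYG00000046597, the ID with the smallest FDR for smet. In the wells of thx at conc 2 it stood at 3983, 2924 and 2673, against 658 to 1585 in solvent, a log2 fold change of 1.45 ± 0.16 with an FDR of 6.4e-09. From conc 3 to conc 8, thx ranged from 781 to 1729. The rise in row G of column 7 was therefore seen on all 6 plates, under 2 different chemicals, and chemical and position cannot be told apart for it.

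ENSOMYG00000009413 differed from solvent in opposite directions with the 2 chemicals. With met at conc 2 it stood at 3461, 2951 and 3684, against 476 to 2983 in solvent with a median of 825, a log2 fold change of 1.57 ± 0.31 with an FDR of 0.0028. With smet at conc 2 it stood at 709, 756 and 581, against 548 to 5023 in solvent with a median of 1651. Both concentrations together gave -1.40 ± 0.32 (FDR 0.015). With smet its mean level was 884 at conc 8, 874 at conc 7, 795 at conc 5 and 730 at conc 4. At conc 3 and conc 2 it was 774 and 682. Outside conc 6 (row C) the mean with smet thus lay below the solvent median at every concentration. Its level followed the well: with met it was also high in row E (1732 to 3248) and not in row F, and per showed the same rows, 3314 to 3783 in G and 2170 to 2474 in E. In column 7 the high row was C, with 3528 to 4312 for smet and 2553 to 3141 for thx. Solvent wells, in other columns, reached up to 2983 in batch 1, below 2 of the 3 conc 2 wells of met, and up to 5023 in batch 2. The log2 fold change of per at conc 2 was 1.04 ± 0.33 (unadjusted p = 0.0029, FDR 0.39).

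The 3 shared IDs were looked up in the same wells. In the wells of per at conc 2, ENSOMYG00000002715 had a log2 fold change of 0.31 ± 0.27, ENSOMYG00000035727 of 0.03 ± 0.16 and ENSOMYG00000002207 of 0.49 ± 0.27, none at an unadjusted p under 0.05. In the wells of thx at conc 2 they had 0.94 ± 0.29 (unadjusted p = 0.0020), 0.57 ± 0.22 (unadjusted p = 0.013) and -0.04 ± 0.38, none past the FDR. At conc 3, ENSOMYG00000035727 was higher in the wells of the other chemicals too. With per it stood at 433, 433 and 475, all above the highest solvent well of 344, a log2 fold change of 0.57 ± 0.15 (unadjusted p = 0.00043, FDR 0.50). With thx it stood at 715, 402 and 719, of which 2 lay above the highest solvent well of 545, a log2 fold change of 0.74 ± 0.24 (unadjusted p = 0.0028, FDR 0.45), beside 0.75 for met and 0.84 for smet at conc 3. ENSOMYG00000008585 and ENSOMYG00000031498, lower with smet, had -0.31 and -0.40 with thx at conc 2. ENSOMYG00000015183, the largest fall with smet, stood at 85.5, 18.2 and 11.0 with thx at conc 2, against a solvent median of 90.1, with a 95% interval of -1.88 to -0.12 for the log2 fold change (unadjusted p = 0.027). At conc 3 its log2 fold change with thx was -0.06, and neither passed the FDR. Of the 13 IDs higher with met, 12 were tested with per, 9 of them lay above 0, 5 were higher at an unadjusted p under 0.05 and 0 passed the FDR, with a median of 0.47. Over all IDs tested with per at conc 2, 47.5% lay above 0 and 2.82% were higher at an unadjusted p under 0.05. Of the 5 IDs higher with smet at conc 2, 4 lay above 0 with thx, against 44.7% of all IDs tested with thx. At an unadjusted p under 0.05, 3 of the 5 were higher, against 1.52% of all IDs, and 1 passed the FDR. Of the 12 falls over both concentrations of smet, 9 lay below 0 with thx. Only 34.5% of all IDs lay above 0 there, so most IDs lay below 0 as well, and nothing is read from the 9. At an unadjusted p under 0.05, 4 of the 12 were lower, against 5.53% of all IDs, and 0 passed the FDR. How much of the rise of each ID belongs to the chemical and how much to the well was not tested. ENSOMYG00000036222, higher with both chemicals under the replicate block described next, stood at 0.68 ± 0.20 with per at conc 2 (unadjusted p = 0.0014, FDR 0.24). ENSOMYG00000009047, higher with met at conc 3, also stood at 1.19 ± 0.30 with per at conc 3 (unadjusted p = 0.00020, FDR 0.39). In column 7 it was high at conc 7 (row B) under both chemicals. Its mean there was 143 with smet and 159 with thx, against solvent medians of 49.7 and 57.2. ENSOMYG00000017892, lower with smet at conc 3, ran from 226 to 340 with thx at conc 3, against a solvent median of 390. Its log2 fold change there was -0.57, not at an unadjusted p under 0.05.

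**Figure D4:**
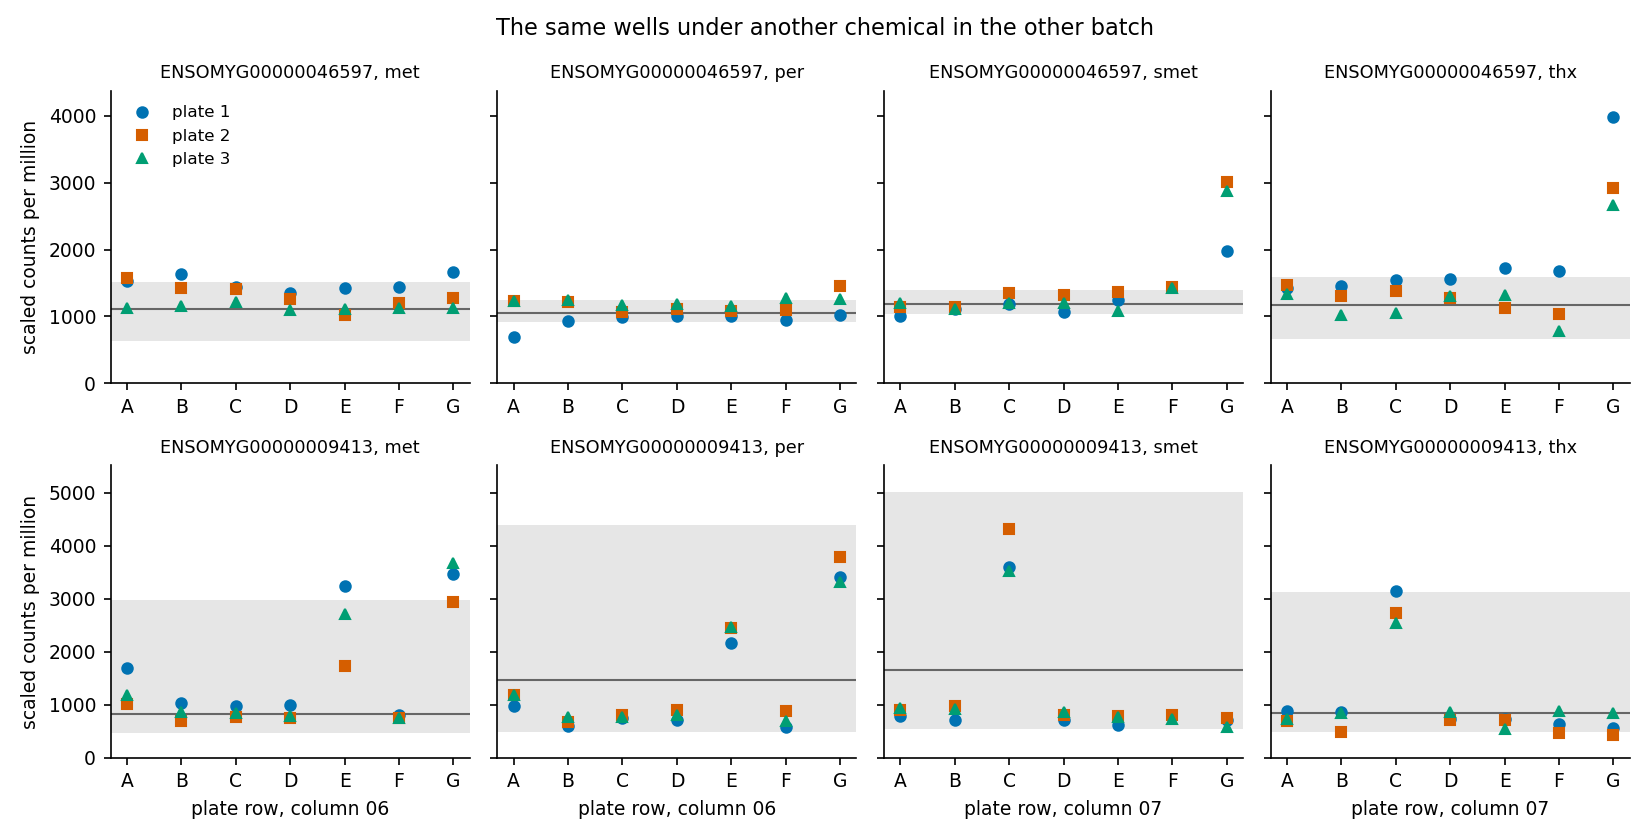
Level of ENSOMYG00000046597 (above) and ENSOMYG00000009413 (below) in scaled CPM (y axis) by plate row from A (conc 8) to G (conc 2) (x axis), in column 6 for met and per and in column 7 for smet and thx; points are single wells by plate, and the grey line and band give the median and the range of the solvent wells of the batch. ENSOMYG00000046597 is high in row G of column 7 only, at 1983 to 3013 with smet and 2673 to 3983 with thx, and ENSOMYG00000009413 is high in rows E and G of column 6 and in row C of column 7, under both chemicals of each column.

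With the plate as a replicate block, which removes what the wells of 1 passage share, more IDs passed. For met there were 31 at conc 2 (0.851%), 13 at conc 3 (0.357%), 34 for both together (0.933%, of which 29 higher and 5 lower) and 15 for the slope (0.446%). For smet there were 35 at conc 2 (0.716%, 16 higher and 19 lower), 21 at conc 3 (0.43%, 18 of them lower), 49 for both together (1%, 40 of them lower) and 6 for the slope (0.157%). Every ID called without the block was called with it. At conc 2, 6 IDs were then higher with both chemicals, the 3 above and ENSOMYG00000010120, ENSOMYG00000017644 and ENSOMYG00000036222, named after their values were seen. ENSOMYG00000008585 and ENSOMYG00000031498 were lower with both chemicals over conc 2 and conc 3 together, which is 2 of 5 falls with met and 2 of 40 with smet.

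These counts moved in both directions when single plates were left out, which also left fewer wells per group. Without plate 1, 2 or 3 in turn, met gave 4, 24 and 3 IDs at conc 2, 1, 7 and 0 at conc 3 and 4, 21 and 2 for both together, and its slope 1, 6 and 0. For smet the counts were 7, 3 and 7 at conc 2, 2, 1 and 0 at conc 3 and 19, 9 and 6 for both together, and its slope 4, 0 and 2. ENSOMYG00000002715 with met at conc 2 and ENSOMYG00000046597 with smet at conc 2 passed under all 13 and 12 alternatives tried for them, and ENSOMYG00000035727 with met at conc 2 under 12 of 13. Every alternative kept the wells of a concentration in the same position, so none could tell the chemical from the well. For ENSOMYG00000046597 this matters most, since it also rose in the conc 2 wells of thx. With smet at conc 2, ENSOMYG00000002715 passed under 10 of 12 and ENSOMYG00000035727 under 9 of 12. ENSOMYG00000002207 was the least stable of the shared IDs, passing under 7 of 13 with met and 5 of 12 with smet; with either chemical it did not pass with solvent wells summed per plate, with conc 8 as control or without a filter on low counts. Other named IDs were unstable too. With met, ENSOMYG00000016230 passed under 5 of 13 at conc 2 and ENSOMYG00000009047 under 6 of 13 at conc 3. With smet at conc 2, ENSOMYG00000036222 passed under 5 of 12 and ENSOMYG00000031498 under 4 of 12. For both concentrations of smet together, ENSOMYG00000022957 passed under 4 of 12 and ENSOMYG00000015183 under 6 of 12. With conc 8 of the same chemical as the control, 1 ID passed for met at conc 2, ENSOMYG00000002715, and 4 passed for smet.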

How the data were processed

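The authors deposited 1 table per chemical with raw counts, whole numbers for each Ensembl ID in each well, solvent wells of the batch included. Per the labels' protocols, cells were exposed under OECD guideline 249 and libraries were made with the QIAseq UPXome kit, which tags each well before wells are pooled. The aligner, counter, genome build and strand setting: not given in the sources used here. The 4 most counted IDs held 44.2% of the counts in the met table and 46.8% in the smet table. No lengths came with the IDs, so levels were not compared per length between IDs.

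Columns were matched to samples by library and well, plates follow from the library numbers, and 0 header concentrations differed from the labels. For each chemical 1 model in edgeR 4.0.16 (R 4.3.3; quasi-likelihood, TMM, filterByExpr by group, two-sided, Benjamini-Hochberg FDR below 0.05 over all IDs tested) held conc 2 to conc 8 and the solvent wells, each well counted as 1 sample. Standard errors are the log2 fold change divided by the root of the F statistic, and intervals are 95%. Plots used Python 3.11.15 and matplotlib 3.10.9. The functions were tested on simulated counts. Alternatives are given in the closing section. Intervals cover the spread between wells, and 2 or 3 wells per group limit them. The main fits left the plate out because the sources state no paired test. Their standard errors, intervals and FDRs therefore treat wells of a plate as independent, although these share a passage.

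The design text gives 1 passage per plate as the replicate, which pairs wells of a plate. Between wells of different groups, residuals after removing group means correlated by a median of 0.395 on the same plate for met and 0.153 for smet, against -0.229 and -0.0784 between plates. Chi-square divided by its degrees of freedom was at least 1.66 in 421 comparisons of replicate wells, so none looked like a repeat deposit of another.

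The wells, the lists and the rule for named IDs were chosen with earlier results of these data known. The rule took IDs called for both chemicals first, then the 2 largest rises and falls per chemical with a mean log2 CPM of 1 or more; with no names, IDs stand in their place, and the planned pathway lists and cell type markers gave no value. The remaining named IDs were added after their values were seen.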

Additional observations from a re-analysis of the deposited data

Results flagged for a closer look

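The signal in data outside the 2 chemicals that stood out was ENSOMYG00000046597 in the conc 2 wells of thx, a chemical of batch 1 in the same wells as smet. Its log2 fold change there was 1.45, with an FDR of 6.4e-09 in edgeR's quasi-likelihood test, against 1.14 for smet, and all 3 wells of thx lay above the 24 solvent wells. Single wells were not tested as outliers. The treated groups, of 2 or 3 wells, were too small for it, and the 15 and 24 solvent wells were not tested either.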

How the results depend on the processing

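Of 94 recounts of called IDs under alternatives, 39 stayed within 1.5 times the reported count and 55 did not; no ID called changed sign. In the order conc 2, conc 3, both together and slope, the replicate block gave 31, 13, 34 and 15 for met and 35, 21, 49 and 6 for smet. Leaving out 1 plate gave 3 to 24, 0 to 7, 2 to 21 and 0 to 6 for met, and 3 to 7, 0 to 2, 6 to 19 and 0 to 4 for smet. Without a filter on low counts, met gave 23, 9 and a slope count of 52, and smet 22, 24 and a slope count of 121. With conc 8 as control, met gave 1, 0 and 0, and smet 4 at conc 2 and 4 for both together. With conc 8 as control and the replicate block, added after seeing the data, met gave 6, 0 and 3, and smet 13 and 8. With solvent wells summed per plate, met gave 3, 0 and 1, and smet 3 at conc 3 and 4 for both. Thinned to 136833 counts, met gave 1 at conc 3; thinned to 49975, smet gave 4, 6 and 8. With all wells kept, smet gave 17 at conc 3 and 27 for both. DESeq2 1.42.0 and RLE scaling each gave 2 at conc 3 of smet. Conc 1 in the slope gave 71 for met; no conc 1 well of smet reached the limit on totals, so that alternative gave no value for smet. Beside counts of 0, edgeR gave 80 to 529 IDs at an unadjusted p under 0.05. The causes were not tested. Over the single IDs named or called, 408 of 659 values kept their call and 251 lost it.

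Depth limits conc 3 of smet, which rests on 2 wells, of 80268 and 56378 counts. Concentrations have no unit, well position follows concentration, and the 2 chemicals share no concentration, so differences between them were not tested.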
